A study of Mus musculus with 6 samples.

Results

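The mitochondrial genome of the mouse carries 37 genes, and all 37 were found among the 54532 genes of the expression table by symbols that start with mt-. They comprise 13 mRNAs, 2 ribosomal RNAs (rRNAs) and 22 transfer RNAs (tRNAs). The RNA came from eYFP-positive cells that were sorted out of dissociated fetal livers of CD-1 mice of the genotype Sm22-Cre/ROSA26RYFP. The Cre is driven by the promoter of Sm22 (Tagln), a promoter of smooth muscle and other contractile mesenchyme, and eYFP stays on in any cell in which Cre has acted and in its descendants. Libraries A, B and C were made at embryonic day 16 (E16) and libraries A, B and C at embryonic day 18 (E18). Genotype, strain, sorting and library kit were the same on both days, so the only labelled difference is age, and the labels do not say whether a library is 1 animal or a pool. P-values therefore reflect library-to-library spread, part of which may be technical.

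Mitochondrial DNA is a small circle that is transcribed from both strands into long precursors. The tRNAs lie between most of the longer genes, and cutting them out releases the rRNAs and mRNAs. The mRNAs encode core subunits of respiratory complexes I, III and IV and of the ATP synthase (complex V), and the rRNAs form the ribosome that translates them. All other proteins of mitochondria, including the polymerase that transcribes this DNA, come from nuclear genes. Fetal liver is a site of blood formation as well as of hepatocyte growth, and heme synthesis and oxidative metabolism both take place in mitochondria.

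The layout of the genes bears on what a short read can assign. Positions are on GRCm38 (mm10), counted from 1, and sequences are those of the GENCODE M21 transcripts, printed 5′ to 3′. The bases of the CD-1 libraries themselves were not read. Neighbouring mRNA genes overlap in 4 places. mt-Atp8 and mt-Atp6 share 43 bases, mt-Nd4l and mt-Nd4 share 7, mt-Atp6 and mt-Co3 share 1, and mt-Nd5 and mt-Nd6 share 14 on opposite strands. A further 5 overlaps, of 1 to 3 bases, involve a tRNA gene. In the first sequence below, at chrM:7927-7969 on the plus strand, capitals mark the start codon of mt-Atp6 and the stop codon of mt-Atp8. In the second, at chrM:10155-10185 on the plus strand, capitals mark the bases that belong to both genes. The third is the end of mt-Nd6, at chrM:13552-13581 on the minus strand, and its capitals pair with the end of mt-Nd5.
mt-Atp8 and mt-Atp6: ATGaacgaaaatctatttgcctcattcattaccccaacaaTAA
mt-Nd4l and mt-Nd4: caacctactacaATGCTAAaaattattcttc
mt-Nd6 end: tttattattatcgagaTTACTCGAGATTAA

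A second feature is that stretches of mitochondrial DNA have been copied into nuclear chromosomes. A search of the annotated nuclear transcripts found 11 genes with at least 95% identity to a mitochondrial gene, and 7 of them lie side by side at chr1:24611535-24616197 on the minus strand, where they match chrM:6390-11042. The first 60 bases of mt-Co2 (chrM:7013-7072, plus strand) are shown with those of its copies on chromosome 1 (Gm28661, chr1:24615506-24615565, minus strand) and chromosome 2 (Gm13341, chr2:22587903-22587962, minus strand). Capitals mark the start codon in mt-Co2 and, in the copies, the bases that differ from it. No base differs in Gm28661.
mt-Co2: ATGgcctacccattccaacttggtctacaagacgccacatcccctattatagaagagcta
Gm28661: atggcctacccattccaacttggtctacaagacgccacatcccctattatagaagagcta
Gm13341: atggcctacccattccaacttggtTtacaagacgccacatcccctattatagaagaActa

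The start of mt-Nd3 (chrM:9459-9488, plus strand) and of its copy Gm28438 (chr1:24613090-24613119, minus strand) is shown because this pair returns below. Capitals mark the single difference, T3C, counted from 1 at the first base of mt-Nd3, and it is the only substitution in the 345 aligned bases.
mt-Nd3: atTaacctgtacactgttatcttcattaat
Gm28438: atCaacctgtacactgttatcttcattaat

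Levels are TPM (a transcript abundance normalised for length and to the same total in every library). Totals of reads recovered from the TPM steps ran from 21130199 to 22626865 at E16 and from 14587541 to 18281946 at E18, so every E16 library was deeper. Over the 6 libraries the mRNAs held 460836 reads and the rRNAs 5783490. Counting noise was therefore small for most of these genes, and the spread between libraries set the precision of their levels. The sorted RNA was mixed. Smooth muscle markers (Acta2, Myh11, Actg2, Cnn1, Tagln) summed to 16.5 to 44.7 TPM at E16 and 157 to 327 at E18, with 3 of 5 called higher at E18 (limma, adjusted p under 0.05), and Tagln itself stood at 0.61 to 3.37 TPM over the 6 libraries. All 6 fibroblast and stellate markers were called higher (300.5 to 575 TPM at E16, 1587 to 4275 at E18). The 8 hepatocyte markers summed to 2015 to 8502 TPM at E16 and 353 to 918 at E18, and all 8 were lower in every E18 library, with 3 called lower (5 by limma's voom on recovered reads). The 8 erythroid markers summed to 4146 to 5614 and 9204 to 17137 TPM, and 7 of them were higher in every E18 library, with 1 called higher (7 by voom). Alb, for example, was at 1287 to 5785 and then 268 to 684 TPM, and Hbb-bs at 682 to 929 and then 1747 to 3056. Of the leukocyte markers, Itgam was at 0 in all 6 libraries and Ptprc was at most 0.14 TPM, but Cd68 stood at 34.6 to 108 TPM and Lyz2 was called higher, at 0.445 to 1.88 TPM at E16 and 4.82 to 8.53 at E18. No endothelial marker was high enough to test. Pecam1 was at most 1.13 TPM, and Tek reached the highest value of that list. Tek stood at 0.328 to 0.839 TPM at E16 and at 1.11, 4.32 and 0.615 TPM in E18 libraries A, B and C. These counts stand beside 3.47% called by limma over all genes tested, 0.387% called lower, and 8.22% called by voom. Over all genes tested, every E18 library was lower for 8.05% and higher for 18.4%. In bulk RNA, fewer cells of a type and less RNA per cell cannot be told apart, and the part of these cell types in the values below was not tested.

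The mRNAs as a class were lower at E18 in every library. Their summed level was 14024, 12649 and 12736 TPM in E16 libraries A, B and C and 10869, 9136 and 12274 TPM in E18 libraries A, B and C, the order used for all lists of values below. Of all TPM in a library this made up 1.31% ± 0.0770 at E16 and 1.08% ± 0.157 at E18 (SD, n = 3 each), a ratio of 0.819. The highest E18 library (C) and the lowest E16 library (B) lay close together. Per TPM of nuclear protein-coding genes the days overlapped, at 3.25%, 2.18% and 2.52% against 2.07%, 1.78% and 2.24%. With 3 libraries a day an exact permutation test cannot give p below 0.1, so a group difference without overlap is the most such a test can show.

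Gene by gene, no member was called by limma at a Benjamini-Hochberg adjusted p under 0.05. For both rRNAs the spread expected by this fit was far above the observed spread, as given below, so a missing call says little. Of the 37 genes, 16 reached the level needed for a test (13 mRNAs, both rRNAs and 1 tRNA), and the background over all 17824 genes tested was 618 calls, or 3.47%, with 0.387% called lower. That background moved with single libraries, with 0 genes called without E16 library A or C or E18 library A or B, 55 without E16 library B and 664 without E18 library C. At an unadjusted p under 0.05 there was 1 of 16 (mt-Nd3), beside 20.9% of all genes. Every E18 library was below every E16 library for 4 members (mt-Rnr1, mt-Atp6, mt-Nd3 and mt-Cytb), beside 8.05% of all genes, and above for none, beside 18.4%. The log2 difference is E18 minus E16 on log2(TPM + 1) and is given ± its standard error. Among the mRNAs 12 of 13 had one below 0 with a median of −0.28, beside 43.05% of all genes tested and a median of 0.07 over them. These genes share their DNA template and their libraries and are not independent counts.

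**Figure D1:**
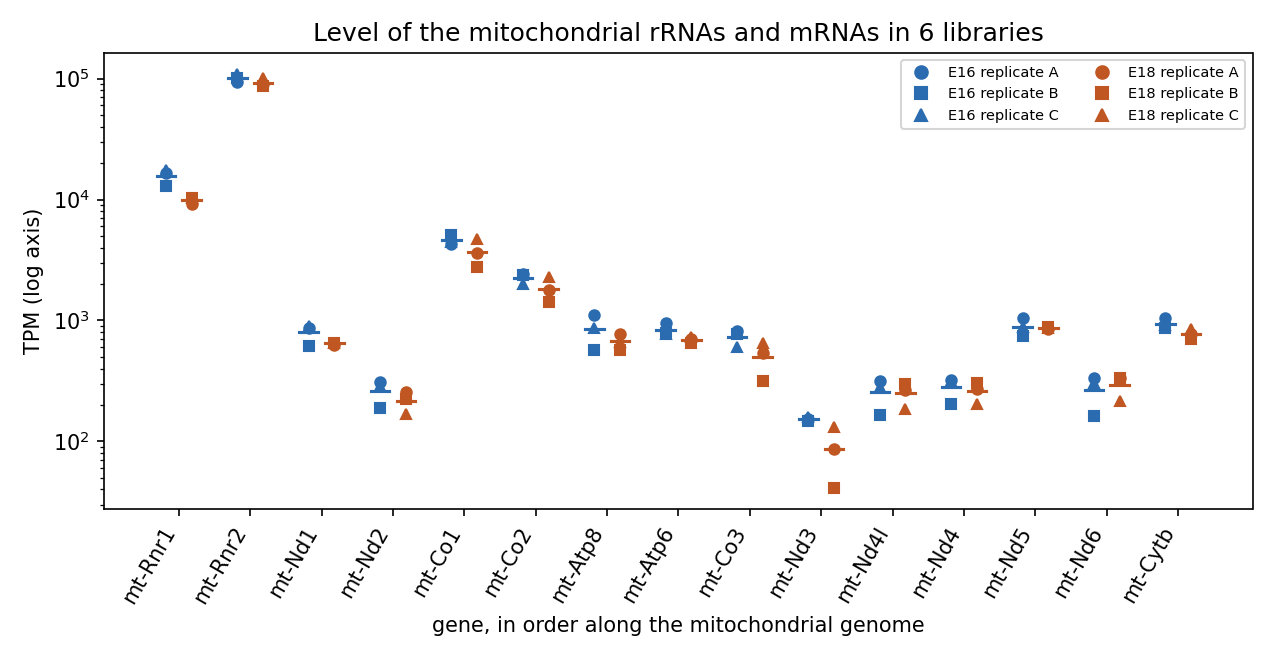
TPM (log axis) of the mitochondrial rRNAs and mRNAs in order along the genome, with E16 libraries in blue, E18 libraries in orange and a bar at the mean of each day. The rRNAs stand above every mRNA, and mt-Co1 and mt-Co2 lead the mRNAs in all 6 libraries. With the chromosome 1 copies counted apart, mt-Nd3 is last in all of them.

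The ribosomal RNAs took most of the mitochondrial reads. mt-Rnr2 (chrM:1094-2675), the 16S rRNA of the large ribosomal subunit, stood at 94158, 100841 and 109860 TPM at E16 and 90299, 86224 and 101922 at E18. The days overlapped, and the log2 difference was −0.13. mt-Rnr1 (chrM:70-1024), the 12S rRNA of the small subunit, stood at 16530, 13023 and 17410 TPM at E16 and at 9170, 10252 and 10387 at E18. All 3 E18 libraries were below all 3 E16 libraries, with means of 15655 ± 2321 and 9936 ± 667 (SD, n = 3 each).

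The test of mt-Rnr1 depended on how the spread was modelled. limma with an intensity trend fits the expected spread as a curve over level, and few genes stand as high as the rRNAs. For mt-Rnr1 this limma fit gave a log2 difference of −0.65 with a standard error of 0.80 and an adjusted p of 0.719. Yet the SD of mt-Rnr1 within days was only 0.17 on the log2 scale. Without the trend the standard error was 0.19 and the adjusted p 0.117. voom on the recovered reads gave −0.67 ± 0.13 and an adjusted p of 0.014, the only member that it called, beside 8.22% of all genes. For mt-Rnr2 the standard error was 4.12 with the trend and 0.17 without it, and the adjusted p was 0.992 and 0.740. The SD of mt-Rnr2 within days was 0.12, so the fit with the trend could not have called even a large change.

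The ratio of the rRNAs within a library does not depend on how the library was scaled. mt-Rnr2 over mt-Rnr1 was 5.70, 7.74 and 6.31 at E16 and 9.85, 8.41 and 9.81 at E18. Every E18 library was above every E16 library, at 9.36 ± 0.820 against 6.58 ± 1.05 (SD, n = 3 each). Summed rRNA over summed mRNA overlapped between the days, at 7.89 to 9.99 and 9.15 to 10.6.

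**Figure D2:**
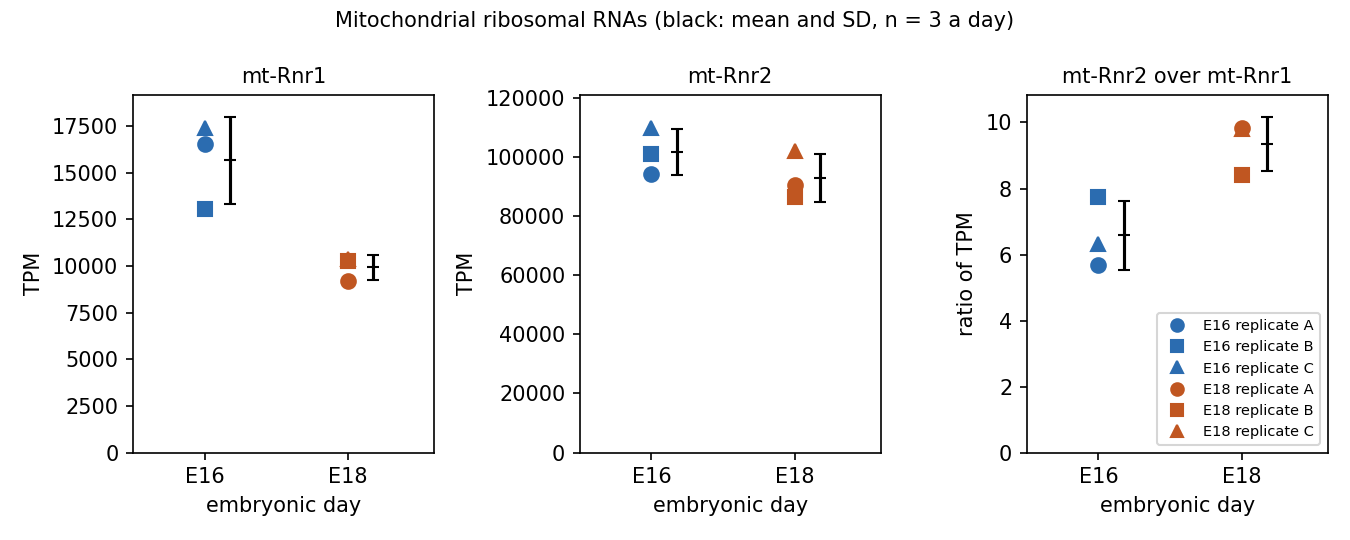
TPM of mt-Rnr1 and mt-Rnr2 and their ratio by day (points are libraries, black bars the mean and SD of 3). mt-Rnr1 and the ratio separate the days, whereas the values of mt-Rnr2 overlap.

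Complex I, the NADH dehydrogenase, has 7 subunits encoded here. Their summed level was 3350, 2225 and 3127 TPM at E16 and 2683, 2733 and 2424 at E18, and the days overlapped. mt-Nd3 (chrM:9459-9806), a small membrane subunit, was the lowest mRNA in every library when the chromosome 1 copies are counted apart. Its TPM was 153, 146 and 158 at E16 and 85.9, 40.9 and 131 at E18. The E16 values lay close together, while E18 library B, with 65 reads for this gene, was far below E18 library C. limma gave mt-Nd3 a log2 difference of −0.97 ± 0.38 with an adjusted p of 0.200, and −0.52 ± 0.20 without E18 library B (adjusted p = 0.302).

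The other complex I subunits differed by less. mt-Nd1 (chrM:2751-3707) was at 867, 617 and 902 TPM at E16 and 626, 656 and 654 at E18. Its log2 difference was −0.28 ± 0.20 (adjusted p = 0.50), and E16 library B lay below all E18 libraries. mt-Nd2 (chrM:3914-4951) was at 312, 189 and 286 TPM and then 257, 222 and 167, a log2 difference of −0.27 ± 0.24 (adjusted p = 0.600). Again E16 library B was within the E18 range. Leaving out 1 library gave −0.45 to −0.18 for mt-Nd1 and −0.49 to −0.10 for mt-Nd2.

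mt-Nd4l (chrM:9877-10173) and mt-Nd4 (chrM:10167-11544), which share bases and are read from 1 mRNA, tracked each other. mt-Nd4l was at 318, 164 and 282 TPM at E16 and 264, 301 and 183 at E18, and mt-Nd4 at 323, 204 and 314 and then 273, 305 and 204. Their ratio was 0.807 to 0.985 at E16 and 0.899 to 0.986 at E18. Log2 differences were −0.01 ± 0.29 and −0.09 ± 0.24, each smaller than its standard error. mt-Nd5 (chrM:11742-13565), the longest of the mRNAs, was at 1040, 744 and 883 TPM at E16 and 845, 876 and 868 at E18, a log2 difference of −0.03 ± 0.20. The 3 E18 values were almost equal and lay inside the E16 range.

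mt-Nd6 (chrM:13552-14070) is the only mRNA of the set encoded on the minus strand in these coordinates. Its base make-up is unlike the rest, with 28.1% G and 5.97% C, whereas G made up 5.88% to 16.1% of the 12 other mRNAs. Its TPM was 337, 162 and 303 at E16 and 332, 332 and 217 at E18. The log2 difference of 0.18 ± 0.31 (adjusted p = 0.806) was the only one above 0 among the mRNAs, and it was −0.15 without E16 library B. Divided by mt-Nd5, whose end it overlaps on the opposite strand, mt-Nd6 was 0.324, 0.217 and 0.343 at E16 and 0.393, 0.379 and 0.250 at E18, with overlap. The strand setting of the authors' counting is not given in the sources used here, so sense and antisense reads over this gene cannot be told apart.

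Complex III has a single subunit in this genome, mt-Cytb (chrM:14145-15288), the cytochrome b that carries electrons from ubiquinol. It stood at 1052, 867 and 909 TPM at E16 and 770, 702 and 851 at E18. The days did not overlap, although E18 library C and E16 library B lay close together. limma gave a log2 difference of −0.28 ± 0.18 with an adjusted p of 0.456.

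Complex IV, cytochrome c oxidase, supplied the most abundant mRNAs. mt-Co1 (chrM:5328-6872), the catalytic subunit, was at 4325, 5073 and 4445 TPM at E16 and 3615, 2745 and 4683 at E18. mt-Co2 (chrM:7013-7696), which takes electrons from cytochrome c, was at 2409, 2359 and 2021 TPM and then 1786, 1419 and 2280. For both, E18 library C lay within the E16 range and E18 library B was the lowest of all. The log2 differences were −0.36 ± 0.41 for mt-Co1 and −0.33 ± 0.29 for mt-Co2, and −0.16 for each without E18 library B. Without the intensity trend the standard errors were 0.24 for mt-Co1 and 0.23 for mt-Co2, so the trend widened that of mt-Co1 in particular. Neither gene was called without the trend (limma adjusted p = 0.491 and 0.502).

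mt-Co3 (chrM:8607-9390), another core subunit, had the second-largest log2 difference among the mRNAs. Its TPM was 813, 769 and 605 at E16 and 533, 318 and 647 at E18, and only E18 library C overlapped the E16 values. The log2 difference was −0.59 ± 0.29 (adjusted p = 0.299) with all libraries and −0.30 ± 0.23 without E18 library B (adjusted p = 0.633).

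Of complex V, the membrane subunits mt-Atp6 and mt-Atp8 are encoded here, on 1 shared mRNA. mt-Atp6 (chrM:7927-8607), part of the proton channel, was at 957, 790 and 768 TPM at E16 and 703, 645 and 729 at E18. The days were apart, with a log2 difference of −0.27 ± 0.18 (adjusted p = 0.458), or −0.17 without E16 library A. mt-Atp8 (chrM:7766-7969) was at 1118, 567 and 861 TPM and then 779, 574 and 660, with overlap and a log2 difference of −0.30 ± 0.28 (adjusted p = 0.626). Without E16 library A it was −0.069. Although they share a transcript, mt-Atp8 over mt-Atp6 ran from 0.718 (E16 library B) to 1.17 (E16 library A). The search of annotated transcripts found a chromosome 1 copy of mt-Atp6 (Gm10925) and no annotated copy of mt-Atp8. mt-Atp8 lies inside the stretch chrM:6390-11042 that the chromosome 1 copies span, and an unannotated copy of it was not searched for. This ratio therefore depends on how reads were assigned, for either gene. With Gm10925 summed in, mt-Atp6 was at 1797 TPM in E16 library A and 1423 in E16 library B.

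With the chromosome 1 copies counted apart, the order of the mRNAs was stable at its ends and not between them. mt-Co1 ranked first and mt-Co2 second in all 6 libraries. mt-Nd5, mt-Cytb, mt-Atp6, mt-Atp8, mt-Nd1 and mt-Co3 followed at day means of 499 to 943 TPM, with ranks that crossed between libraries. mt-Nd5 ranked 3 in every E18 library and 5 or 6 at E16. mt-Nd6, mt-Nd4, mt-Nd4l and mt-Nd2 came next at day means of 216 to 294 TPM, with mt-Nd6 above mt-Co3 in E18 library B, and neighbours among them did not differ beyond their SDs. The highest mRNA exceeded the lowest by 28.2 to 34.7 times at E16 and 35.9 to 67.2 times at E18, a spread that mt-Nd3 sets from below. With the copies summed in, mt-Nd3 took 1.47% of the pool in E16 library B, above mt-Nd2 (1.21%) and mt-Nd6 (1.04%). In E18 library C it then took 1.23%, above mt-Nd2 (1.11%). mt-Nd5 then took 5.79% to 7.78% at E18, below mt-Atp6 (9.12% to 11.7%). These ranks therefore depend on how reads were assigned to the copies.

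Shares within the pool of 13 remove the scaling of the library, and for 12 of the 13 mRNAs they overlapped between the days. Only the share of mt-Nd3 separated them, at 1.09%, 1.16% and 1.24% against 0.791%, 0.447% and 1.06%. In E16 library B and in E18 library C complex IV took 64.8% and 62.0% of the pool, against 49.1% to 55.5% in the other libraries. Complex I took 17.6% and 19.8% in the same 2 libraries and 23.9% to 29.9% in the rest. The shares of mt-Nd1, mt-Nd2, mt-Nd4l, mt-Nd4, mt-Nd5, mt-Nd6, mt-Atp8 and mt-Cytb were the lowest of their day in these libraries, and those of mt-Co1, mt-Co2 and mt-Co3 the highest. The median log2 difference of the 13 mRNAs was −0.31 without E16 library B and −0.29 without E18 library C.

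Some other measures placed these 2 libraries at the same end of their day, and others did not. The nuclear-retained RNA Malat1 was lowest in both, at 809, 585 and 759 TPM at E16 and 1391, 1747 and 1056 at E18. The summed level of 72 nuclear-encoded respiratory chain genes was highest in both, at 5885, 9414 and 6769 TPM and then 6360, 5097 and 7536. The hepatocyte sum was also highest in both, at 2522, 8502 and 2015 TPM at E16 and 353, 784 and 918 at E18, and Gm26917, the transcript with the largest share of TPM, was lowest in both, at 19.8% against 25.0% and 33.9% at E16 and 22.6% against 25.2% and 26.0% at E18. The erythroid sum was highest of its day in E16 library B (5614 TPM) and lowest in E18 library C (9204), and the smooth muscle and fibroblast sums were in the middle of their day in E16 library B and lowest in E18 library C. The part of these measures in the make-up of the mitochondrial pool was not tested.

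**Figure D3:**
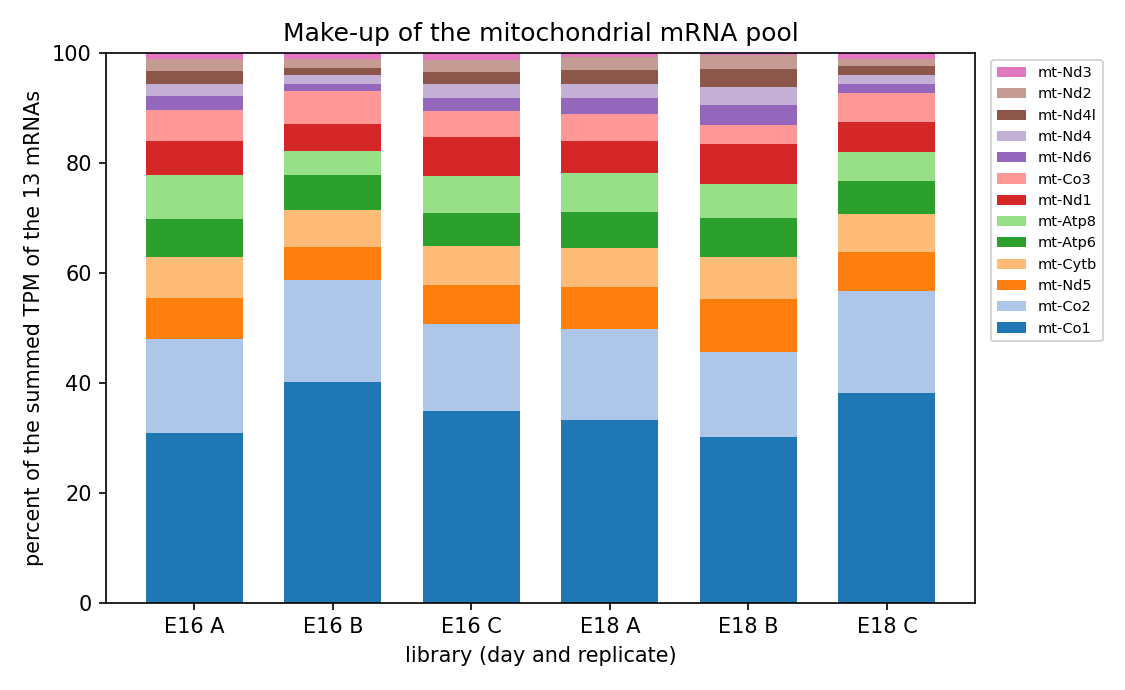
Percent of the summed TPM of the 13 mRNAs taken by each, per library. mt-Co1 takes 40.1% in E16 library B and 38.2% in E18 library C, against 30.05% to 34.9% in the other libraries, and no mRNA but mt-Nd3 has shares that separate the days.

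Transfer RNAs were almost unseen. At 59 to 75 bases they are shorter than the fragments usual for such libraries, and 17 of 22 had no read in any library. The other 5 held 9 reads in all. A tRNA without a read could still have stood at up to 5.86 to 11.5 TPM, the level that 3 reads would give for its length and library, by counting error alone. Of the 8 tRNA genes on the minus strand 4 had a read (mt-Tn, mt-Tc, mt-Ts1 and mt-Tp, 8 reads in all), and of the 14 on the plus strand 1 did (mt-Ts2, 1 read).

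mt-Tc, the tRNA for cysteine (chrM:5192-5257, minus strand), was the only tRNA above the filter. Its sequence is printed to show how short the target is, with the letters GCA of its anticodon in capitals.
mt-Tc: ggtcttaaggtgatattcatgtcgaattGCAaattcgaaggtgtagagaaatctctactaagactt
In E16 libraries A to C mt-Tc had 2.22, 2.28 and 0 TPM, and in E18 libraries A to C 3.43, 0 and 2.74, each value above 0 being 1 read. No day difference was detectable with so few reads (log2 difference 0.22 ± 0.72, limma adjusted p = 0.909).

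The copies on chromosome 1 had levels of the same order as their mitochondrial genes. Gm10925, identical to mt-Atp6 over 678 bases, was listed at 80.5% to 104% of the TPM of mt-Atp6. Gm28437 was at 65.6% to 76.8% of mt-Co3, Gm10222 at 47.7% to 59.9% of mt-Nd4l, Gm28661 at 45.4% to 49.3% of mt-Co2 and Gm28439, which covers the first 876 bases of mt-Nd4, at 24.9% to 41.7% of that gene. All of these are 100% identical to their mitochondrial gene over the aligned bases. Gm29216, which matches the last 483 bases of mt-Co1 with 1 substitution (A1066T, counted from the first base of mt-Co1), was at 22.6% to 28.1%. Reads from a mitochondrial RNA and an identical nuclear copy cannot be told apart, so neither level is certain.

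The less similar copies were low. Gm13340 on chromosome 2, with 97.6% identity over the whole of mt-Co1, was at 1.81% to 2.23% of mt-Co1, and Gm13341 at 0.0709% to 0.217% of mt-Co2. The other 2, Gm13339 (mt-Nd2) and Gm4076 (mt-Nd5), stayed under 1% of their mitochondrial gene in every library.

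**Figure D4:**
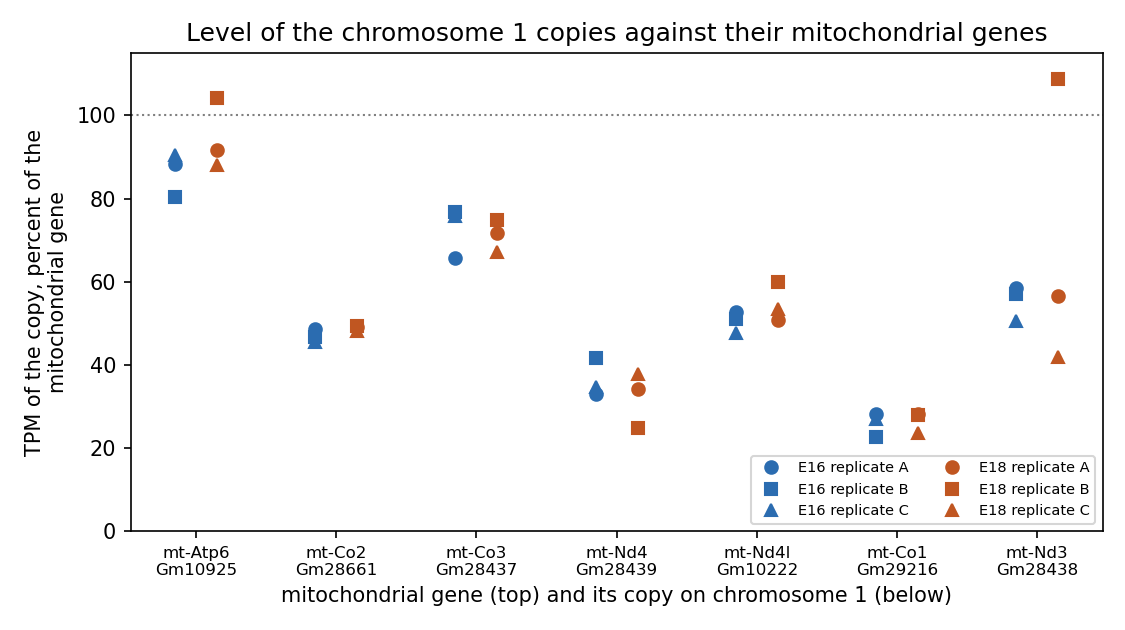
TPM of each chromosome 1 copy as a percent of its mitochondrial gene, per library (the dotted line marks equal levels). Gm10925 lies at 80.5% to 104% of mt-Atp6, Gm29216 at 22.6% to 28.1% of mt-Co1, and E18 library B is far above the rest for Gm28438 over mt-Nd3.

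The 7 copies together were lower in every E18 library, as the mRNAs were. They summed to 4125, 3729 and 3597 TPM at E16 and 3197, 2681 and 3511 at E18, a ratio of 0.820. Gm29216, Gm28661 and Gm10925, the 3 most abundant, had log2 differences of −0.32 ± 0.22, −0.27 ± 0.24 and −0.14 ± 0.18 and were not called. The copy of mt-Nd3, Gm28438, was called lower by limma and is singled out here after its values were seen. It was at 89.6, 83.3 and 79.7 TPM at E16 and 48.6, 44.4 and 54.6 at E18, a log2 difference of −0.77 ± 0.13 with an adjusted p of 0.035, a call lost without E16 library A or C or E18 library A or B.

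Summing copies into their genes left the calls of the members as they were. mt-Nd3 with Gm28438 was at 242, 229 and 237 TPM at E16 and 134, 84.9 and 185 at E18. Its log2 difference was −0.87 ± 0.26 and its adjusted p 0.114, below the 0.200 of mt-Nd3 alone and still above the threshold. E18 library B, where mt-Nd3 alone was lowest, had Gm28438 at 109% of mt-Nd3, against 41.8% to 58.5% in the other libraries. With copies summed in, mt-Nd4l had a log2 difference of 0.033 ± 0.30 in place of −0.01.

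Nuclear genes supply the machinery that copies, transcribes, processes and translates the mitochondrial genome. In 6 lists of such genes, 58 of 60 were tested. limma called none at an adjusted p under 0.05, beside 3.47% of all genes, and 12 passed an unadjusted p under 0.05, beside 20.9%. voom called 2 lower (Polrmt and Lrpprc), beside 8.22% of all genes. The median log2 difference was −0.29, and 47 of 58 were below 0, beside 43.05% of all genes. For 18 every E18 library was below every E16 library (background 8.05%), and for 1 above (background 18.4%). The part of the cell-type markers given above in these values was not tested.

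Transcription was represented by 9 genes with a median of −0.32. Polrmt, the mitochondrial RNA polymerase, had a mean of 56.6 ± 5.22 TPM at E16 that compares with 36.9 ± 4.57 at E18 (SD, n = 3 each), a log2 difference of −0.61 ± 0.14 with a limma adjusted p of 0.065. Tfam, which packages mitochondrial DNA and opens its promoters, was at 34.2 ± 2.57 and 24.2 ± 3.65 TPM (−0.49 ± 0.16, adjusted p = 0.138). The 7 genes of DNA replication had a median of −0.27, with Top1mt, a topoisomerase, at −1.11 ± 0.32, Twnk, the helicase, at −0.56 ± 0.25 and Polg2, the accessory subunit of the DNA polymerase, at 1.32 ± 0.61.

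RNA processing and decay frees, stabilises and degrades the transcripts. Of its 16 tested genes 15 had a log2 difference below 0 (43.05% of all genes), and the median was −0.31. For 9 every E18 library was below every E16 library (8.05% of all genes). Lrpprc, which binds and stabilises mitochondrial mRNAs, was at 90.7 ± 1.93 TPM at E16 and 64.3 ± 6.73 at E18, a log2 difference of −0.49 ± 0.12 with a limma adjusted p of 0.074. Tbrg4 and Fastkd2, both of the FASTK family of mitochondrial RNA-binding proteins, had log2 differences of −0.46 ± 0.13 and −0.71 ± 0.21 (adjusted p = 0.10 and 0.104). The 13 genes that modify rRNA and tRNA had a median of −0.12, with Mrm2, a methyltransferase of the 16S rRNA, at −0.87 ± 0.36 and Mrm1, another, at 0.27 ± 0.14.

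Translation inside mitochondria uses its own factors and ribosomal proteins. The 8 translation factors had a median of −0.33, with Tufm, the elongation factor, at −0.75 ± 0.27 (limma adjusted p = 0.168). Among 77 tested mitochondrial ribosomal proteins 73 had a log2 difference below 0 (43.05% of all genes), and the median was −0.36. For 17 every E18 library was below every E16 library (8.05% of all genes). limma called 0 of the 77 (3.47% of all genes) and voom 0 (8.22% of all genes). At an unadjusted limma p under 0.05 there were 11, beside 20.9% of all genes. Mrps27, a small-subunit protein, had the smallest p at −0.94 ± 0.21 (adjusted p = 0.055). The 5 tested regulators of mitochondrial biogenesis had a median of −0.37, with Pprc1, a coactivator, at −0.40 ± 0.17.

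Partner subunits of the same complexes are encoded in the nucleus. The 72 genes had a median log2 difference of −0.18, beside −0.28 for the mitochondrial mRNAs. Of them 54 were below 0 (43.05% of all genes). Every E18 library was lower for 6 (8.05% of all genes) and higher for 1 (18.4% of all genes). limma called 0 of the 72 (3.47% of all genes) and voom 0 (8.22% of all genes). At an unadjusted limma p under 0.05 there were 3, beside 20.9% of all genes. By complex the medians were −0.09 for complex I (37 genes), −0.31 for complex III (9), −0.24 for complex IV (11) and −0.18 for complex V (15). Cox7c, a small subunit of complex IV, was at −0.48 ± 0.17, and Ndufa7, an accessory subunit of complex I, at 0.39 ± 0.18. Summed mitochondrial mRNA over the sum of these 72 genes was 2.38, 1.34 and 1.88 at E16 and 1.71, 1.79 and 1.63 at E18, so the ratio overlapped and did not separate the days.

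**Figure D5:**
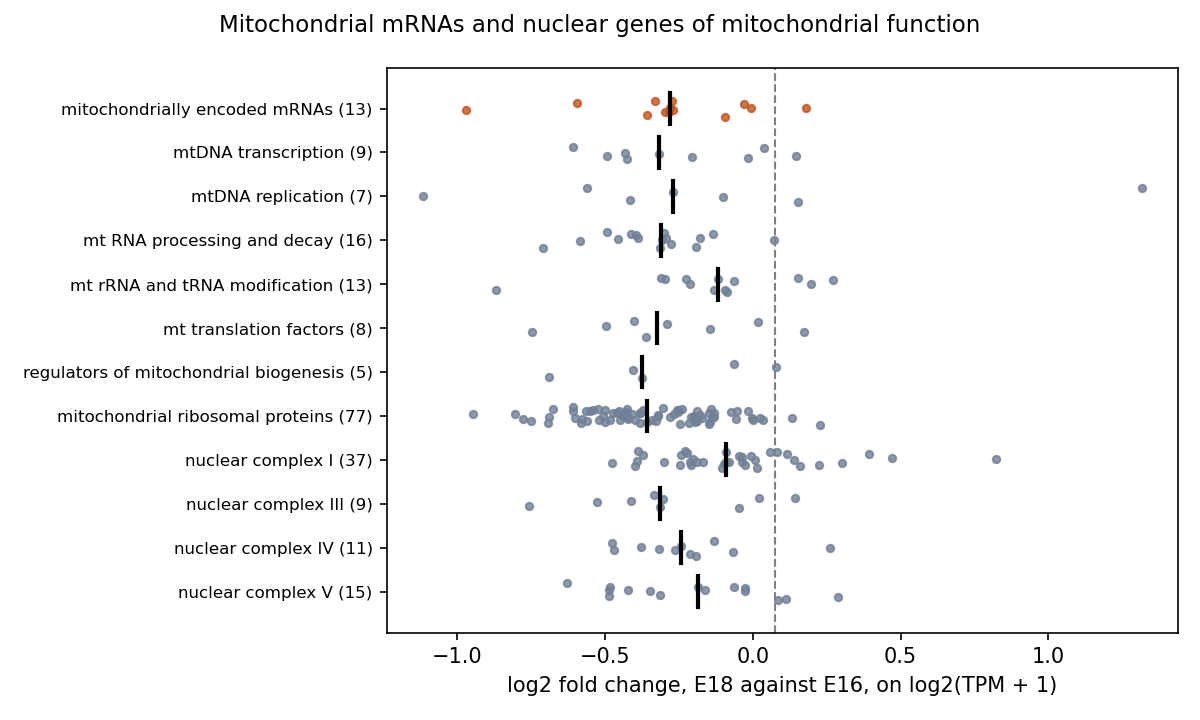
Log2 difference, E18 against E16, of every tested gene in each list (number in brackets), with the list's median as a black bar and the median of all genes tested (0.07) as a dashed line. The medians of all lists lie left of the dashed line, from −0.37 for the regulators of biogenesis to −0.09 for nuclear complex I.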

How the data were processed

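Gene expression was measured in 6 libraries of total RNA (3 at E16, 3 at E18) made with a stranded kit, per the labels' protocols. The authors deposited TPM values per gene. The submitters' processing notes name HTSeq 0.5.4p3, HISAT2 2.1.0, FastQC 0.11.7, Bowtie and the mm10 build, and no roles. The sources used here do not give the strand setting, the handling of reads with several matches or the annotation. Identifiers were matched to GENCODE M21 (54495 of 54532). TPM times merged exon length gave whole reads within 0.05 for 97.4% to 97.6% of values under 1000 reads, hence the read totals.

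Genes that reached TPM 1 in 3 or more libraries were tested by limma 3.58.1 (R 4.3.3) on log2(TPM + 1), which understates changes of low genes, with an intensity trend, empirical Bayes, 2-sided p-values and Benjamini-Hochberg adjustment over all genes tested, called at adjusted p under 0.05. Values after ± are standard errors for log2 differences and SD for levels. The steps were tested on simulated data, in which 23.2% of 2-fold changes (log2 difference of 1) and 60% of 4-fold changes were called. The largest log2 difference of a member was −0.97 (mt-Nd3), so at these rates most changes of the size seen in the members would be missed. The simulation changed few genes, all upward, and took levels and spreads from all genes tested. Its rates may therefore differ from those for the members. Copies were searched with BLAST 2.17.0 among annotated nuclear transcripts only. Figures were drawn with Matplotlib 3.10.9.

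Members and lists were chosen with earlier results of these data known. Named were all mRNAs, both rRNAs, tested tRNAs, up to 4 genes per list by smallest p, the 3 most abundant copies and 7 fixed genes; the remaining copies, and tRNAs and markers given with single values, were named after their values were seen. Alternatives were other pseudocounts, filters and scalings, no trend, array weights, a replicate block, voom on recovered reads and leaving out each library; summing in the copies was chosen after seeing the data.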

Additional observations from a re-analysis of the deposited data

How the results depend on the processing

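The median log2 difference of the 13 mRNAs stayed below 0 in every alternative run, from −0.39 with median-of-ratios scaling to −0.17 without E16 library A. Quantile normalization moved the median of all genes from 0.07 to −0.09 and that of the 13 mRNAs to −0.35. Of 303 alternative values over 16 members, 287 kept their direction and their side of the threshold, 3 newly passed it, 12 changed sign and 1 was 0 (mt-Rnr2 with quantile normalization). Some runs called 0 of all genes, so a kept side of the threshold says nothing there. These were no filter, the replicate block, and leaving out E16 library A or C or E18 library A or B. The number of members called was 2 with array weights (mt-Nd1 and mt-Nd3, adjusted p = 0.045 and 0.025, beside 24.2% of all genes) and 1 with voom on recovered reads, where mt-Rnr1 passed, and 0 in all others. With array weights mt-Tc, the only tRNA tested, had a log2 difference of 1.51. The filter of 5 TPM left no tRNA to test.

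All changes of sign were in 5 members. Leaving out 1 library gave −0.35 to 0.89 for mt-Tc, −0.29 to 0.20 for mt-Nd4l, −0.31 to 0.072 for mt-Nd4, −0.15 to 0.090 for mt-Nd5 and −0.15 to 0.38 for mt-Nd6, and summing in the copies gave 0.033 for mt-Nd4l. Without E16 library A 9 of 13 mRNAs were below 0, and without E16 library B all 13 were.

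The 618 calls over all genes, against which members are read, moved with the processing. They numbered 4316 with array weights, 1465 with voom, 406 with a filter of 5 TPM, 395 with quantile normalization, 347 with a pseudocount of 5 and 0 with no filter. Leaving out 1 library gave 0 to 664 calls, with 0 without E16 library A or C or E18 library A or B, 55 without E16 library B and 664 without E18 library C. The share of calls that were higher was 88.8%, and 79.0% with quantile normalization, 78.6% when scaled to nuclear protein-coding genes and 64.8% with array weights. With the letter as a replicate block 0 genes and 0 members were called. Libraries of the same letter did not deviate together (correlations of 0.102, −0.139 and −0.117 for A, B and C), so the letters were not taken as pairs. Few reads limit the tRNAs, which are shorter than usual fragments. For the other members the spread between 3 libraries a day is a limit. For both rRNAs and mt-Co1 the fitted trend also limits the main test, with standard errors well above those without it.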
